A study of Mus musculus with 4 samples.

Results

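The genes described here encode the heterogeneous nuclear ribonucleoproteins (hnRNPs) and the serine- and arginine-rich splicing factors (SR proteins), 2 families of RNA-binding proteins that act on pre-mRNA. Members were taken by symbol alone: 20 genes whose symbol starts with Hnrnp and 11 whose symbol starts with Srsf and a digit, without pseudogenes, which makes 31 of the 49568 gene symbols in the table. Of these, all 20 hnRNP genes and 10 of the 11 SR genes reached a value of 10 in 2 or more of the 4 libraries, the condition for being tested. Srsf12 had 2 reads in migrasome replicate 1 and 0 reads in the other 3 libraries, so it was not tested. The tested members are 96.8% of all members, against 21.9% of all symbols.

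The series profiled RNA of mouse origin from migrasomes, in 2 libraries, and from cytosol, in 2 libraries, each named by its title. Migrasomes are vesicles that form on the retraction fibres left behind by a migrating cell. The sources used here do not give the strain, the cell type, any treatment or the way in which migrasomes and cytosol were prepared. They also do not say whether the libraries came from separate cultures, and where they did not come from separate cultures the p-values measure only technical spread. In such bulk samples fewer cells of a type and less RNA per cell cannot be told apart, and all values are relative to the other RNA of the same library.

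hnRNPs bind nascent transcripts as they leave RNA polymerase and help to set splice site choice, 3′ end processing, export, stability and translation of mRNA, and several shuttle between nucleus and cytoplasm. Many repress the use of an exon when they bind near it. SR proteins often do the opposite: they bind exonic enhancers through RNA recognition motifs and recruit spliceosome subunits through a tail of alternating arginine and serine residues. That tail is phosphorylated by the SRPK and CLK kinases and read by the import receptor transportin 3. Genes of both families make alternative transcripts with premature stop codons, through which some of their proteins limit their own level. The data concern the mRNAs of these proteins, not the proteins.

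The coding sequences show what separates the families, and the stretches below were chosen for the 3 hnRNP genes that passed the test, for Hnrnpu, and for SR genes with many and with few arginine-serine pairs. For each gene the longest complete coding sequence in the GENCODE M21 annotation of GRCm38 was searched for the 24 codons (72 bases) with the most neighbouring pairs of an arginine and a serine codon (SR genes) or of an arginine and a glycine codon (hnRNP genes). Capitals mark the arginine codons that take part in such a pair, each sequence is the coding strand from 5′ to 3′, and all lie in coding exons.
Srsf1: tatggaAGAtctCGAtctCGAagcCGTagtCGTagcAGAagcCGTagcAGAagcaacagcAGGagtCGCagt
Srsf2: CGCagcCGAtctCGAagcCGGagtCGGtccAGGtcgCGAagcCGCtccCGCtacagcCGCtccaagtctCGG
Srsf9: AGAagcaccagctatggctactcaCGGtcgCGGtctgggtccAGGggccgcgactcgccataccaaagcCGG
Hnrnpk: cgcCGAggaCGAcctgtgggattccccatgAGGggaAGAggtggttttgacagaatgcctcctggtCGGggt
Hnrnph3: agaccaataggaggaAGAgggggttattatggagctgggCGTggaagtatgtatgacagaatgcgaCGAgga
Hnrnpa3: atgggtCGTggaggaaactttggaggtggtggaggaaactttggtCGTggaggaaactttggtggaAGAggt
Hnrnpu: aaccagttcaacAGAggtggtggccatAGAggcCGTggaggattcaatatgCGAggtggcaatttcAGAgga
The stretch of Srsf1 lies at chr11:88049463-88049534 (plus strand), that of Srsf2 at chr11:116852244-116852315 (minus strand) and that of Srsf9 at chr5:115332609-115332680 (plus strand). That of Hnrnpk lies at chr13:58394624-58394695 (minus strand), that of Hnrnph3 at chr10:63018060-63018131 (minus strand) and that of Hnrnpu at chr1:178330596-178330667 (minus strand). That of Hnrnpa3 spans an intron between its ends, at chr2:75662687-75662846 (plus strand).

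Srsf1 and Srsf2 each held 19 arginine-serine pairs in the stretch, an almost unbroken alternation, whereas Srsf9, whose tail is short, held 7. A stretch with at least 7 such pairs was found in 10 of the 10 tested SR genes and in 0 of the 20 hnRNP genes, against 0.991% of the 9994 tested genes with a complete coding sequence. hnRNP genes instead carried arginine beside glycine, as in the RGG boxes with which several of these proteins bind RNA. At least 5 arginine-glycine pairs in a stretch were found in 12 of 20 hnRNP genes and 2 of 10 SR genes, against 2.15% of those genes. Hnrnpk held 7 such pairs, Hnrnpu and Hnrnpa3 held 6 and Hnrnph3 held 5.

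The families also differed in their gene models. The median coding sequence had 434.5 codons in hnRNP genes and 257.5 in SR genes, against 465 over the tested genes, and the merged exons covered a median of 5.90 kb and 4.40 kb. The GC content of the transcript with that coding sequence was similar, with a median of 45.0% and 44.2%, below the 50.3% of the tested genes. Transcript models marked for nonsense-mediated decay were annotated for 9 of the 10 tested SR genes and 10 of the 20 hnRNP genes. Models with a retained intron were annotated for 8 SR genes and 14 hnRNP genes, with the most, 13, for Hnrnpk. The table holds 1 value per gene, so reads from these models are not separated from those of the coding mRNA.

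Recovered library totals ranged from 5171092 to 8608369 reads, and 10860 genes were tested, of which 943 were higher and 1919 lower in migrasome at an adjusted p of 0.05. Higher genes were thus 32.9% of the calls, a share that was 11.3% when libraries were scaled to the same total, 46.0% with quantile normalization and 24.6% with TMM scaling, none of which is the authors' scaling. Fibroblast markers were present, such as Vim at 16385 and 14221 in cytosol, and of 7 such genes 1 rose in migrasome (Vim) and 5 fell. Of 2 tested neural markers 1 rose, Map2, from 10.1 and 14.4 to 32.5 and 30.3. By contrast, the summed value of 4 epithelial markers did not exceed 2.83, that of 4 leukocyte markers 7.54 and that of 3 endothelial markers 2.63 in any library. All 4 genes of proteins known from migrasomes fell in migrasome (Tspan4, Cd63, Itgb1 and Itga5), with a median of -1.78, so these mRNAs gave no check of the label. Of 4 tested RNAs that are known to stay in the nucleus, all 4 were lower in both migrasome libraries than in either cytosol library. So were 36.3% of all tested genes. Of the 4, 1 (Rn7sk) fell past the test, as did 17.7% of all tested genes. The summed value of that list was 80588 and 77508 in cytosol and 12073 and 16908 in migrasome. Rn7sk made up most of each sum, at 69225 and 71563 in cytosol and 6647 and 12733 in migrasome. Malat1 (difference -0.79), Neat1 (-0.86) and Kcnq1ot1 (-0.58) did not pass. The part of these RNAs in the results below was not tested.

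Differences between migrasome and cytosol were mostly positive for hnRNP mRNAs and closer to 0 for SR mRNAs. Values are the deposited normalised read counts, and a difference is the migrasome mean less the cytosol mean of log2(value + 1), given with its limma standard error (SE) and a Benjamini-Hochberg adjusted p over all tested genes. Of the 20 tested hnRNP genes, 3 rose (15%, against a background of 8.68% of tested genes called higher), 0 fell (background 17.7%) and 17 did not pass. Their median difference was 0.62, and 19 were positive. Of the 10 SR genes 0 rose and 0 fell. Their median difference was 0.20, and 8 were positive. Of the tested genes 26.4% were called in either direction, their median difference was -0.00, and 49.8% were positive. At an unadjusted p under 0.05 limma passed 9 hnRNP genes, all higher in migrasome, where 17.4% of tested genes passed as higher, and 0 SR genes, where 41.6% passed in either direction. On the recovered reads edgeR called 6 hnRNP genes higher (background 9.86%) and DESeq2 called 8 (background 10.5%), and both called 0 SR genes.

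Both migrasome libraries lay above both cytosol libraries for 15 of the 20 hnRNP genes (75%) and 4 of the 10 SR genes (40%), where the background was 33.3% of tested genes. Both lay below for 1 hnRNP gene and 2 SR genes, where the background was 36.3%. The SR count is thus near the background and the hnRNP count above it.

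**Figure D1:**
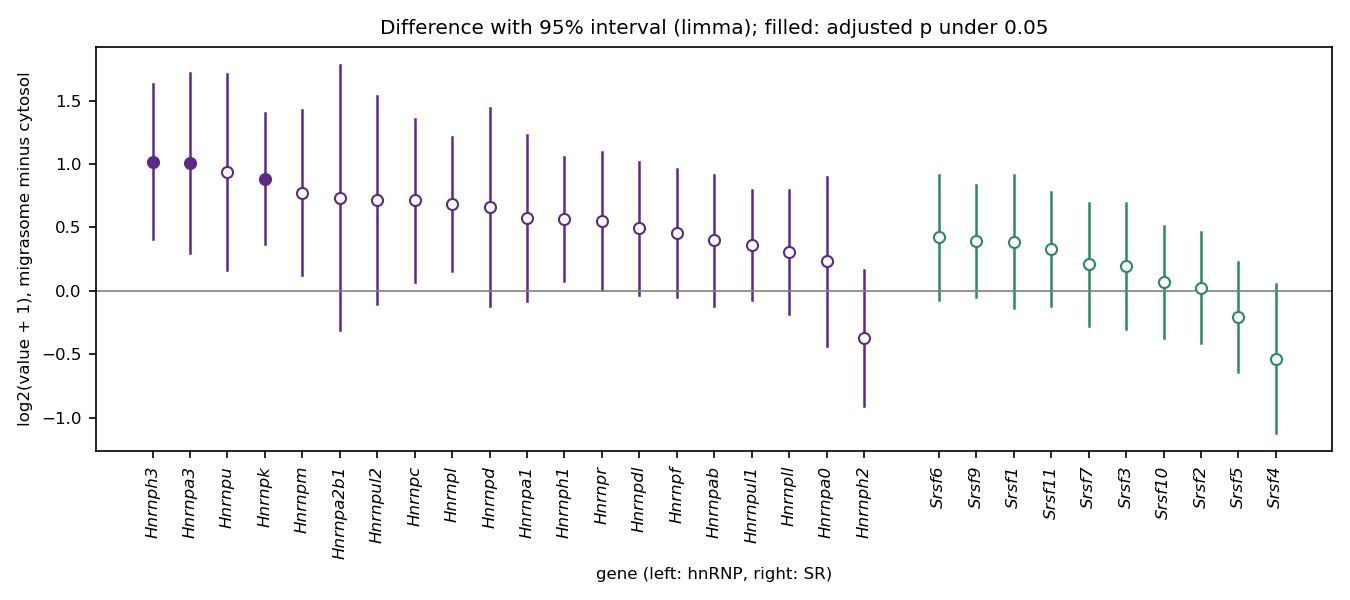
Log2 difference of each tested member (migrasome minus cytosol, vertical axis) with its 95% interval from limma; hnRNP genes in purple on the left, SR genes in green on the right, filled points past an adjusted p of 0.05. Points run from -0.37 to 1.02 for hnRNP genes and from -0.54 to 0.42 for SR genes, and 3 hnRNP points are filled.

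Hnrnpk, which binds C-rich RNA and DNA through KH domains and shuttles between nucleus and cytoplasm, had the smallest adjusted p of the members. It lies on chromosome 13 from 58391142 to 58403343 (minus strand, GRCm38). Its value was 5097 in cytosol replicate 1, 4868 in cytosol replicate 2, 10440 in migrasome replicate 1 and 8103 in migrasome replicate 2, the order kept below, so both migrasome libraries stood well above both cytosol libraries. The difference was 0.88 ± 0.23 (SE, limma adjusted p = 0.021). It did not pass without cytosol replicate 1 (limma adjusted p = 0.15), without cytosol replicate 2 (0.20), with no filter on low values (0.062) or with quantile normalization (difference 0.27, limma adjusted p = 0.26).

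Hnrnph3, of the F/H group, whose proteins bind runs of G, lies on chromosome 10 from 63014664 to 63024217 (minus strand). It stood at 93.1 and 92.6 in cytosol and at 236 and 151 in migrasome, a difference of 1.02 ± 0.27 (SE, limma adjusted p = 0.024). Cytosol replicates were nearly equal and both migrasome libraries were higher, the first more so. The call was lost without cytosol replicate 1 or 2 or migrasome replicate 1 (limma adjusted p from 0.069 to 0.078), with scaling to the same total (0.072) and with no filter (0.056).

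Hnrnpa3, a relative of Hnrnpa1 and Hnrnpa2b1 in the A/B group, lies on chromosome 2 from 75659261 to 75669407 (plus strand). Its values were 799 and 624 in cytosol and 2061 and 980.5 in migrasome, a difference of 1.01 ± 0.32 (SE, limma adjusted p = 0.043). Its migrasome libraries lay above the cytosol libraries but differed from each other more than the cytosol libraries did. Without migrasome replicate 1 the difference was 0.47 (limma adjusted p = 0.12). Without cytosol replicate 2 it was 0.83 (0.11). The call was also lost with no filter, without a trend, and with quantile, TMM or same-total scaling (limma adjusted p from 0.055 to 0.11).

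In the rest of the A/B group, whose proteins have tandem RNA recognition motifs and a glycine-rich tail, no gene passed. Hnrnpa2b1, which is known for sorting RNAs into dendrites and exosomes, had the largest spread of any member. It stood at 6109 and 3748 in cytosol and at 14377 and 4408 in migrasome, so migrasome replicate 2 lay between the cytosol libraries. Its difference of 0.73 ± 0.47 (SE, limma adjusted p = 0.26) was -0.12 without migrasome replicate 1 and 1.59 without migrasome replicate 2. Hnrnpa1, a splicing repressor, was at 4354 and 3601 in cytosol and at 7966 and 4355 in migrasome. Its second migrasome library was level with cytosol replicate 1, and the difference was 0.57 ± 0.29 (limma adjusted p = 0.17). Hnrnpa0, an AU-rich element binder, had the smallest positive difference of the family (0.23 ± 0.30, limma adjusted p = 0.57), with overlapping groups. Hnrnpab, at 5846 and 6479 in cytosol and at 9071 and 7258 in migrasome, had a difference of 0.40 ± 0.23. Hnrnpd, which encodes the mRNA decay factor AUF1 (0.66), and its relative Hnrnpdl (0.49) also did not pass, and only Hnrnpd overlapped between the groups. Under quantile normalization the differences of Hnrnpa0 and Hnrnpab were negative, at -0.14 and -0.22, and with scaling to the same total that of Hnrnpa0 was -0.04.

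In the C, M, L and U groups no gene passed, and most differences lay above the family's median. Hnrnpu, which encodes the nuclear scaffold protein SAF-A, stood at 4004 and 2769.5 in cytosol and at 9354 and 4348 in migrasome (difference 0.94 ± 0.35, limma adjusted p = 0.070). Both migrasome libraries were above the cytosol libraries, the first by far more than the second. It passed without cytosol replicate 1 (limma adjusted p = 0.030) and without migrasome replicate 2 (difference 1.49, limma adjusted p = 0.00025). Hnrnpm, a regulator of alternative exons, was even in cytosol, at 1305 and 1291, and uneven in migrasome, at 3101 and 1586 (difference 0.77 ± 0.29, limma adjusted p = 0.075). Hnrnpl, which binds CA repeats, was at 1539.9 and 1315 in cytosol and at 2766 and 1896 in migrasome, just short of the threshold (difference 0.69 ± 0.24, limma adjusted p = 0.056). Hnrnpc, which binds uridine tracts and packages pre-mRNA, had a difference of 0.71 ± 0.29 (limma adjusted p = 0.091). Hnrnpul2 (0.72), Hnrnpr (0.55), Hnrnpul1 (0.36) and Hnrnpll (0.30) did not pass either, and of these 4 only Hnrnpul2 overlapped between the groups.

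The F/H group held both ends of the family. Hnrnph1 (0.56 ± 0.22, limma adjusted p = 0.082) and Hnrnpf (0.46 ± 0.23, limma adjusted p = 0.16) lay in the middle of the family, with no overlap of the groups. Hnrnph2, an X-linked paralog of Hnrnph1, was the hnRNP gene with a negative difference. It stood at 134 and 132 in cytosol and at 106 and 98.7 in migrasome, so both migrasome libraries were lower (difference -0.37 ± 0.24, 95% interval -0.91 to 0.16, limma adjusted p = 0.26).

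**Figure D2:**
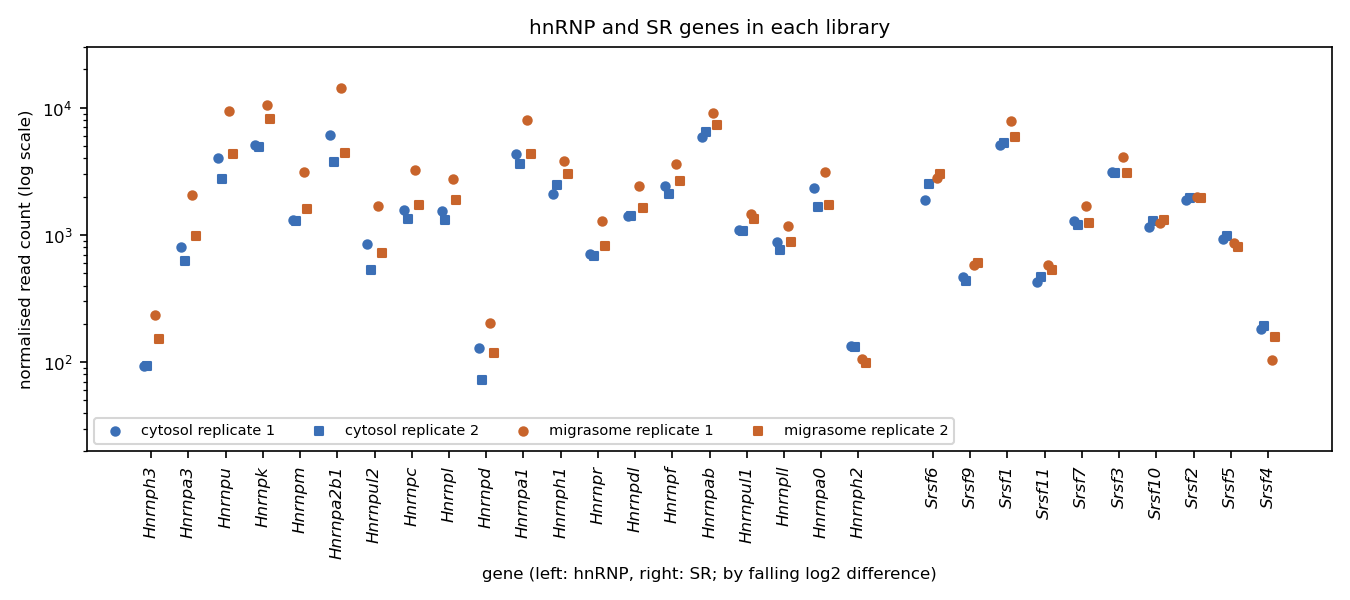
Normalised read count (log scale) of each tested member in the 4 libraries; circles are replicate 1 and squares replicate 2, cytosol in blue and migrasome in orange. Among hnRNP genes the orange circle is the highest point except for Hnrnph2, while for SR genes such as Srsf2 (1894 to 1986) the 4 points lie together.

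Among SR genes no difference passed, and the 95% intervals of the 10 genes together spanned -1.12 to 0.92. Srsf1, the founding family member also known as ASF/SF2, stood at 5135 and 5235 in cytosol and at 7872 and 5842 in migrasome. Both migrasome libraries were higher, the first by more, and the difference was 0.39 ± 0.23 (SE, limma adjusted p = 0.24). Srsf6 (0.42 ± 0.22, limma adjusted p = 0.18) had the largest difference, at 1871 and 2534 in cytosol and at 2811 and 3022 in migrasome. Srsf9, at 463 and 433 in cytosol and at 581 and 597 in migrasome, had close replicates in both groups and a difference of 0.39 ± 0.20 (limma adjusted p = 0.16). Srsf11 (0.33 ± 0.20) was the other SR gene with both migrasome libraries above cytosol.

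Srsf2, or SC35, whose protein marks nuclear speckles, had the difference nearest to 0, at 1894 and 1958 in cytosol and at 1986 and 1935 in migrasome. Its difference was 0.03 ± 0.20, with a 95% interval from -0.41 to 0.46. The shuttling factors Srsf3 (0.19) and Srsf7 (0.21), which are known adaptors of mRNA export, and the splicing repressor Srsf10 (0.07) had overlapping groups. Srsf3 was at 3141 and 3047 in cytosol and at 4107 and 3053 in migrasome, so its second migrasome library lay between the cytosol libraries.

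Srsf4 and Srsf5 were the SR genes with both migrasome libraries below cytosol. Srsf4, whose coding sequence holds the most arginine-serine pairs of any member (106), stood at 181 and 191 in cytosol and at 105 and 157 in migrasome. Its difference was -0.54 ± 0.26 (SE, limma adjusted p = 0.15), and it passed without migrasome replicate 2 (difference -0.82, limma adjusted p = 0.016). Srsf5 stood at 932 and 983 in cytosol and at 857 and 805 in migrasome (difference -0.20 ± 0.19). Srsf1 also passed without migrasome replicate 2 (difference 0.60, limma adjusted p = 0.028), so that without this library 2 SR genes were called, 1 in each direction (background 19.2% higher and 25.8% lower). Scaling to the same total per library turned the differences of Srsf2, Srsf3, Srsf7 and Srsf10 negative, TMM scaling those of Srsf2 and Srsf10, and quantile normalization those of Srsf1, Srsf2, Srsf3, Srsf7 and Srsf10.

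The 2 migrasome libraries did not carry hnRNP mRNAs equally. Every one of the 20 tested hnRNP genes was higher in migrasome replicate 1 than in replicate 2, by a median of 0.65 on the log2 scale, against 6 of 10 SR genes (median 0.06) and 48.4% of all tested genes (median -0.02). The largest gaps were those of Hnrnpa2b1 (1.71), Hnrnpul2 (1.22), Hnrnpu (1.10) and Hnrnpa3 (1.07), and the smallest those of Hnrnpul1 (0.12) and Hnrnph2 (0.10). The cytosol libraries leaned the same way: 17 of 20 hnRNP genes were higher in replicate 1, by a median of 0.20, against 3 of 10 SR genes (median -0.06). Hnrnpd, Hnrnpa2b1 and Hnrnpul2 had the widest cytosol gaps, at 0.83, 0.70 and 0.67.

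Set against the mean of the cytosol libraries, the hnRNP median was 0.98 in migrasome replicate 1 and 0.25 in migrasome replicate 2, with 19 and 17 of 20 positive differences. The SR median was 0.37 and 0.06, with 8 and 6 of 10 positive. The gap between the families' medians was therefore 0.42 with both, 0.61 with migrasome replicate 1 alone and 0.19 with migrasome replicate 2 alone. Over the 4 pairs of 1 migrasome and 1 cytosol library the gap ran from 0.06 (migrasome replicate 2 against cytosol replicate 1) to 0.85 (migrasome replicate 1 against cytosol replicate 2). These pairs share libraries, and the gap was positive in all 4 of them. The count of hnRNP genes called higher also depended on the library left out, as did that of all tested genes. Without migrasome replicate 1 it was 1 of 20, with 8.45% of tested genes called higher, and without migrasome replicate 2 it was 17, with 19.2%. Without cytosol replicate 1 it was 3, with 2.63%, and without cytosol replicate 2 it was 0, with 2.13%.

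**Figure D3:**
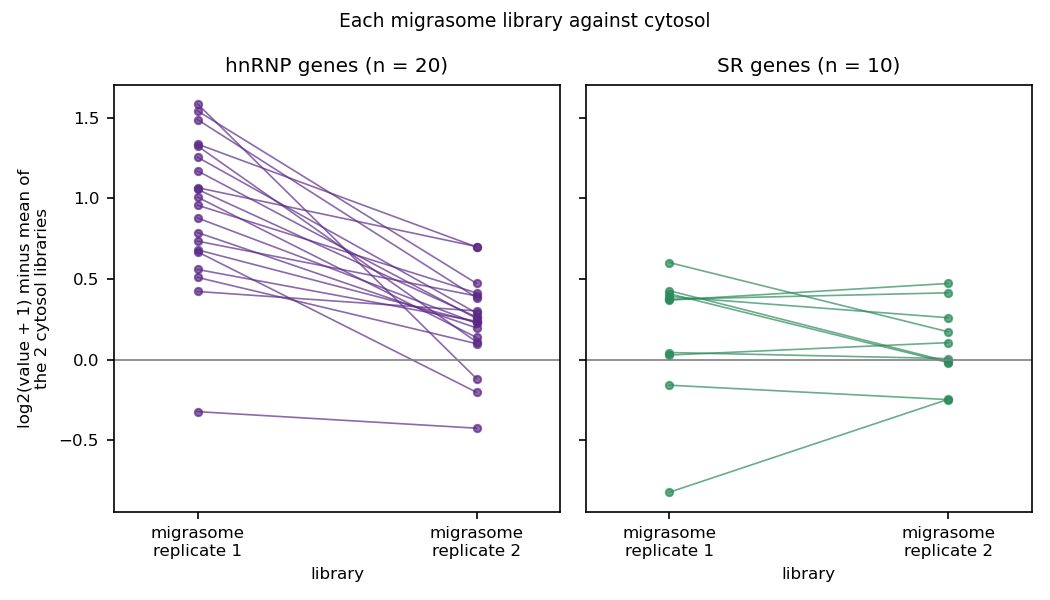
Log2(value + 1) of each tested member in migrasome replicate 1 and replicate 2 minus the mean of the 2 cytosol libraries; each line is a gene, hnRNP genes on the left and SR genes on the right. All 20 hnRNP lines fall from left to right, from a median of 0.98 to 0.25, while 6 of the 10 SR lines fall.

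The summed values show the same pattern at the level of the families. Of the total value, hnRNP genes held 0.732% and 0.627% in the cytosol libraries and 1.10% and 0.701% in the migrasome libraries. Migrasome replicate 2 thus lay between the cytosol libraries. SR genes held 0.282% and 0.294% in cytosol and 0.295% and 0.272% in migrasome, so their groups overlapped. The ratio of the hnRNP sum to the SR sum was 2.60 and 2.14 in cytosol and 3.73 and 2.58 in migrasome, and migrasome replicate 2 did not exceed cytosol replicate 1.

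**Figure D4:**
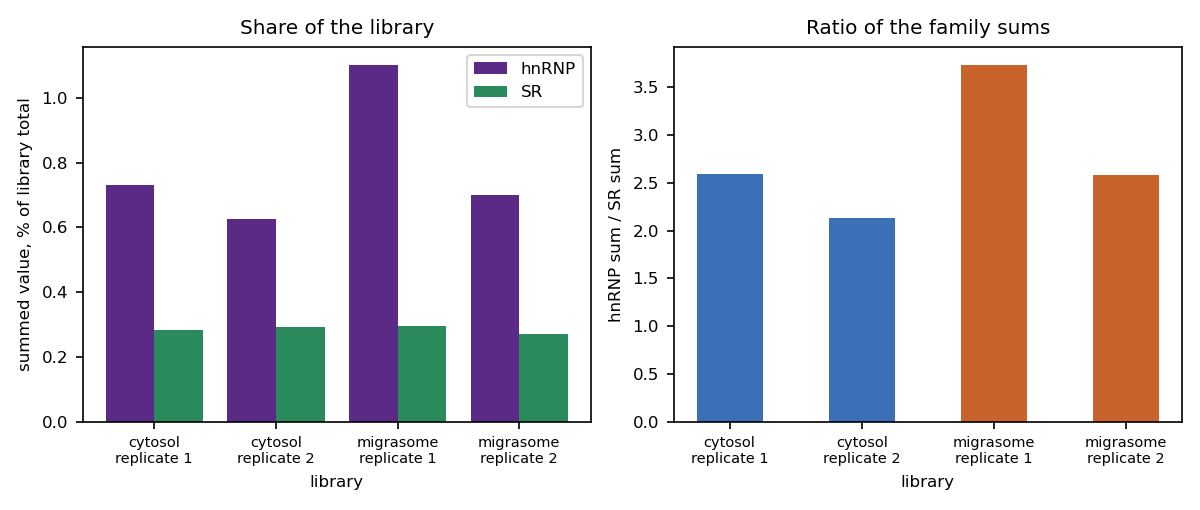
Left, summed value of the hnRNP (purple) and SR (green) genes as a percentage of each library's total; right, ratio of the family sums, cytosol in blue and migrasome in orange. The hnRNP bar and the ratio are highest in migrasome replicate 1 (1.10% and 3.73), and migrasome replicate 2 stays at the level of cytosol replicate 1 in the ratio.

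The scaling set the level of both families. Scaling to the same total or by TMM multiplies each library by a factor, so it shifts all differences nearly alike. It could hardly change the gap between the families, whereas quantile normalization could. Scaling to the same total moved the median of all tested genes to -0.27, and relative to that median hnRNP genes stood at 0.62 and SR genes at 0.20, as with the authors' scaling (0.62 and 0.21). Quantile normalization moved the median of all tested genes to 0.11, and relative to it hnRNP genes stood at 0.10 and SR genes at -0.29. The gap between the families was 0.42 and 0.40 with these 2 scalings. The hnRNP genes therefore stood above the typical gene by an amount that depended on the scaling. Of the gaps to SR genes, only that with quantile normalization (0.40) could have differed much from that with the authors' scaling (0.42).

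Levels between genes were compared per kilobase of merged exons, and all ranks in this paragraph are by this measure. Merged exons can be far longer than the transcript with the longest coding sequence, and not equally so for each gene. They covered 5.71 kb against 1209 bases for Srsf1, 2.78 kb against 1437 for Hnrnpab and 6.47 kb against 2970 for Hnrnpk. Ranks by transcript length can differ and were not computed. Hnrnpab was the most abundant member in both groups, at 2215 per kb in cytosol and 2935 in migrasome, followed by Hnrnpa1 (1261 and 1954). Srsf1 was the most abundant SR gene, at 908 per kb in cytosol and 1201 in migrasome. In migrasome it stood below Hnrnpk (1434) and Hnrnpa2b1 (1427), which in cytosol stood below it, at 771 and 749. The least abundant tested members per kb in migrasome were Hnrnpd (21.8), Hnrnph2 (23.4) and Srsf4 (36.7). In cytosol Hnrnpd (13.8) was again the lowest, followed by Hnrnph3 (29.5) and Hnrnph2 (30.4).

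The number of arginine-serine pairs and the compartment difference are shown for each member. Across the 30 tested members the count of pairs in the whole coding sequence and the difference had a Pearson r of -0.62 and a Spearman rho of -0.45. This describes 2 families that differ in both quantities, and the points share the 4 libraries. Within the 20 hnRNP genes r was 0.25, and within the 10 SR genes it was -0.66 (rho -0.37), where Srsf4 had both the most pairs and the lowest difference. The plot shows instead the pairs in the richest stretch, of which Srsf4 had 16. Over all 9994 tested genes with a coding sequence it was -0.03. Exon length and GC content had an r of 0.21 and -0.18 with the difference across the 30 members.

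**Figure D5:**
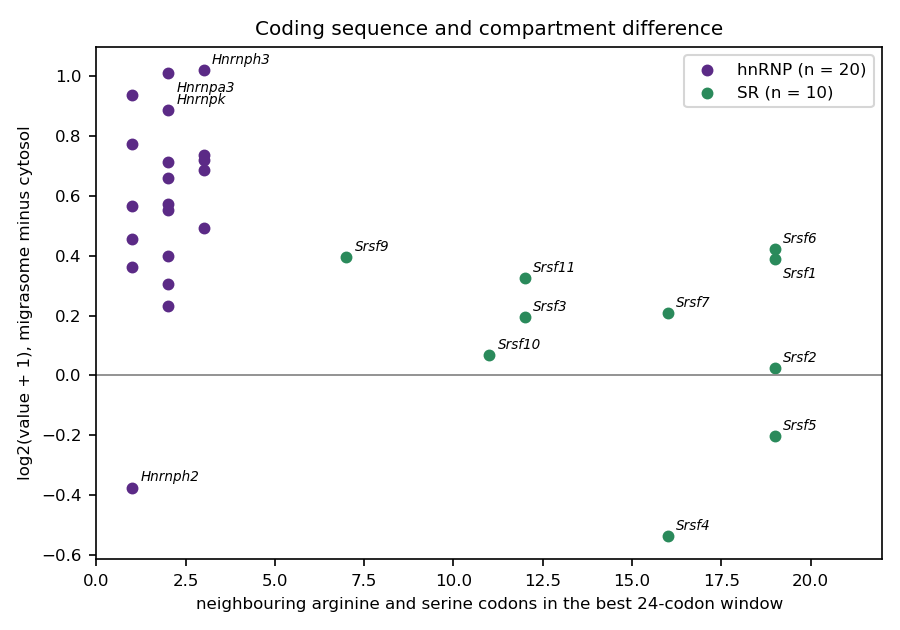
Log2 difference (migrasome minus cytosol) against the number of neighbouring arginine and serine codon pairs in the richest 24-codon stretch, hnRNP genes in purple and SR genes in green. hnRNP genes lie at 1 to 3 pairs and SR genes at 7 to 19, with SR differences of at most 0.42 and most hnRNP differences above it.

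Genes with related functions were read from lists of known proteins. Of 14 tested genes for hnRNP proteins that carry other symbols, 3 rose and 0 fell, where 8.68% of all tested genes rose and 17.7% fell. The median was 0.58, and 13 differences were positive. With scaling to the same total the median was 0.30 and 1 gene was called higher (background 2.97%), as with no filter (2.06%) or no trend (4.45%). The median was 0.34 without migrasome replicate 1 and 0.71 without migrasome replicate 2. In the latter fit more genes of the list and of all tested genes were called higher. Pcbp2, which encodes hnRNP E2 with KH domains like those of hnRNP K, rose most, from 1576 and 1327 in cytosol to 3947 and 2632 in migrasome (difference 1.16 ± 0.24, limma adjusted p = 0.0081). Its call held without any single library (limma adjusted p up to 0.049). The polypyrimidine tract binder Ptbp1, or hnRNP I (0.74 ± 0.20), and Raly (0.69 ± 0.22) also rose, but neither passed when cytosol replicate 1 or cytosol replicate 2 was left out (limma adjusted p between 0.11 and 0.27), nor did Raly without migrasome replicate 1 (0.085).

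On the SR side, 19 SR-related proteins gave a median of 0.22, with 1 that fell and 0 that rose (background 17.7% and 8.68%). That median was -0.05 with scaling to the same total, 0.12 with quantile normalization and 0.08 without migrasome replicate 1. Without migrasome replicate 2 it was 0.39, and more genes of the list and of all tested genes were called higher. The gene that fell was Scaf8, a binder of the RNA polymerase II tail (-0.71 ± 0.23, limma adjusted p = 0.046), which did not pass when cytosol replicate 1, cytosol replicate 2 or migrasome replicate 1 was left out (0.11 to 0.24). The most abundant of the list, Scaf11, did not pass (0.32). Of 7 kinases that phosphorylate SR proteins, 3 fell, all of them CLK kinases, and 0 rose (background 17.7% and 8.68%). Clk2 stood at 117 and 126 in cytosol and at 39.6 and 67.1 in migrasome (difference -1.22 ± 0.31, limma adjusted p = 0.019). Clk1 (-0.82 ± 0.25) and Clk4 (-0.69 ± 0.22) fell too, with both migrasome libraries below both cytosol libraries. The other kinases, Clk3 (-0.03), Prpf4b (0.04), Srpk1 (0.19) and Srpk2 (0.38), did not pass. With cytosol replicate 1 or 2 left out none of the 3 CLK calls held (limma adjusted p between 0.057 and 0.30), nor did any with quantile normalization (0.064 to 0.15), and that of Clk1 was also lost without migrasome replicate 1 (0.072). All 3 CLK calls were also lost with no filter (limma adjusted p 0.052 to 0.073). Those of Clk1 and Clk4 were lost with no trend (limma adjusted p 0.056 and 0.072) and with DESeq2 on recovered reads (DESeq2 adjusted p 0.065 and 0.070). Of the import receptors Tnpo1, Tnpo2 and Tnpo3 none passed. Only Tnpo3, which encodes transportin 3 (difference 0.25 ± 0.21), is placed here on the SR side. Tnpo1 (0.46) and Tnpo2 (0.21) were listed with it, so the median of the 3 is not an SR value. That median of 0.25 was -0.02 with scaling to the same total and 0.03 with quantile normalization. It was 0.07 without migrasome replicate 1 and 0.50 without migrasome replicate 2.

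Of 71 tested genes of the core spliceosome 14 rose and 1 fell (background 8.68% and 17.7%). The median was 0.41, and 62 differences were positive. It was 0.14 with scaling to the same total. The median lay between those of the families here, but above the hnRNP median with quantile normalization (0.35 against 0.22) and without migrasome replicate 1 (0.32 against 0.25). The largest rises were those of Snrnp200 (1.18 ± 0.23), the helicase that unwinds the U4/U6 snRNAs, Eftud2 (1.08), its GTPase partner in the U5 particle, Ddx46 (1.03) and Prpf8 (0.99), the scaffold of the catalytic centre. Prpf38b was the one that fell (-0.77), a call lost without cytosol replicate 1 (limma adjusted p = 0.22), without cytosol replicate 2 (0.10), with no filter (0.057) and with no trend (0.065). The most abundant by value, Snrpb, an Sm ring subunit, did not pass (0.41). With scaling to the same total, 6 of these genes were called higher (background 2.97%). The median was 0.40 without cytosol replicate 1, 0.44 without cytosol replicate 2 and 0.59 without migrasome replicate 2. Fewer genes were called higher when a cytosol library was left out and more without migrasome replicate 2, as among all tested genes. The calls of Snrnp200 and Eftud2 held in each of these cases. Those of Ddx46 and Prpf8 were lost without cytosol replicate 2 (limma adjusted p 0.11 and 0.089), and that of Ddx46 also with scaling to the same total (0.087), without migrasome replicate 1 (0.083), with no filter (0.084) and with no trend (0.086).

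Of 24 tested other splicing regulators, 5 rose and 1 fell (background 8.68% and 17.7%). The median was 0.41, and 0.14 with scaling to the same total. Matr3 (1.15 ± 0.26), Sfpq (1.02), the cold-inducible Rbm3 (1.01) and Nono (0.98) led the rises. Sfpq, Nono and Matr3 encode proteins of the nuclear matrix or paraspeckles. Rbm3, the most abundant of the list, stood at 3501 and 3424 in cytosol and at 7884 and 6151 in migrasome. Rbm5 fell (-0.71 ± 0.20). Matr3 and Sfpq kept their calls when cytosol replicate 1 or 2 was left out. The other rises and Rbm5 did not, and fewer of all tested genes were called higher in these fits. Without migrasome replicate 2 the median was 0.42, and more genes of the list and of all tested genes were called higher.

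Some values carry a limit of annotation. Exons of 14 members share bases with exons of another gene in GENCODE M21. On the opposite strand, Hnrnpk overlaps Rmi1, Hnrnph3 overlaps Rufy2, Hnrnpu overlaps Cox20, Hnrnpab overlaps Phykpl, Srsf2 overlaps Mettl23 and Mfsd11 and Srsf4 overlaps Gm12992, and Hnrnpd, Hnrnpf, Hnrnpl, Hnrnpr and Srsf1 each overlap a gene that has only a provisional name. On the same strand, Hnrnpm overlaps March2, Hnrnpul2 overlaps the protein-coding AC129217.1 by 178 bases and Hnrnpa3 overlaps the annotated miRNA gene Gm24574 by 57 bases. The sources used here do not state the strand setting of the counting, so reads of such pairs cannot be told apart, and those of a same-strand pair cannot be with any setting. Some members also have near-identical pseudogene copies, and how reads with more than one match were counted is not stated, so those values are uncertain.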

How the data were processed

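RNA of migrasomes and of cytosol was measured in 2 libraries each. The values deposited by the authors are a normalised signal for each gene, namely read counts scaled by a factor for each library. Per the submitters' processing notes the tools were STAR, HTSeq, DESeq, FastQC, cutadapt and Trimmomatic, with build GRCm38. The sources used here give no roles, versions, annotation or strand setting. Every value was a whole multiple of its library's smallest value above 0 (tolerance 0.001), so whole reads were recovered for 100% of values, with cytosol totals of 7529136 and 8608369 and migrasome totals of 5228713 and 5171092. The value of 3 reads, the floor for a gene with none, was 2.33, 2.06, 4.24 and 3.95 in that order and covers counting error only.

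Tests used limma 3.58.1 in R 4.3.3 (trended eBayes, no replicate block) on log2(value + 1), a scale on which changes of low genes are understated, for genes reaching 10 in 2 or more libraries, with Benjamini-Hochberg adjustment over all tested genes and a threshold of 0.05. With 2 libraries a group, no exact permutation test can give a p under 0.33. edgeR 4.0.16 and DESeq2 1.42.0 ran on recovered reads as alternatives, beside other pseudocounts, filters and scalings, no trend, a replicate block and each library left out. On simulated data limma called 68 of 100 genes changed 2-fold, 100 of 100 changed 4-fold and 13 unchanged genes among 10829. The chi-square statistic per degree of freedom between replicates was 17.6 (cytosol) and 27.9 (migrasome), so neither pair is 1 library deposited again. Members, lists and tests were chosen with earlier results of these data known. Named genes were all members and, per related list, up to 4 called genes a direction and the most abundant; kinases and receptors that did not pass, and overlapping genes, were added after values were seen. Sequences and gene models came from GENCODE M21, in which 31 of 31 members were found. Figures used matplotlib 3.10.9.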

Additional observations from a re-analysis of the deposited data

How the results depend on the processing

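The gap between the families' medians stayed positive in all 15 alternatives, from 0.40 to 0.43 where all libraries were kept and from 0.19 to 0.61 with 1 left out. Many of the alternatives that kept all libraries could not test it. Another filter, no trend and the replicate block leave the members' differences unchanged, and same-total and TMM scaling shift all differences nearly alike. Over 450 values of members under alternatives, 378 kept direction and side of the threshold, 36 gained a call, 16 lost one and 20 changed sign. Called hnRNP genes numbered 0 with no filter (where 1741 genes in all were called), 1 with scaling to the same total or quantile normalization, 6 with edgeR and 8 with DESeq2, and from 0 to 17 with a library left out. Left-out libraries gave 0 to 2 SR calls and 1414 to 4885 calls in all. Among the 10860 tested genes, 322 were called higher with scaling to the same total and 1194 with quantile normalization. With edgeR 1071 of them were called higher and with DESeq2 1140, against 943 in the main test. With no filter 393 of 19077 genes were called higher. For left-out libraries the shares of all tested genes called higher are given in the Results. The cause of these changes was not tested, other than that no filter tests more genes and a left-out library leaves fewer samples. The fit with the replicate number as a block called 13 hnRNP genes, 0 SR genes and 4423 of the 10860 tested genes, counting both directions. Of all calls in that fit 40.7% were higher in migrasome. Deviations of same-numbered libraries correlated over genes (r = 0.23), but the labels do not say that numbers pair libraries. With the block Hnrnpu had an adjusted p of 0.00042 (limma).

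With the same total per library, Hnrnpa0 was at -0.039, Srsf10 at -0.21, Srsf2 at -0.25, Srsf3 at -0.078, Srsf7 at -0.065 and the SR median at -0.071. With TMM, Srsf10 was at -0.0048 and Srsf2 at -0.046. With quantile normalization, Hnrnpa0 was at -0.14, Hnrnpab at -0.22, Srsf1 at -0.19, Srsf10 at -0.17, Srsf2 at -0.31, Srsf3 at -0.27, Srsf7 at -0.058 and the SR median at -0.18. With 1 library left out, Hnrnpa0 ranged from -0.20 to 0.67, Hnrnpa2b1 from -0.12 to 1.59, Srsf10 from -0.018 to 0.15, Srsf3 from -0.019 to 0.41 and Srsf7 from -0.012 to 0.43; the negative values came without migrasome replicate 1 except for Srsf10 (without cytosol replicate 1), and Hnrnpa0 was also negative without cytosol replicate 2 (-0.014). Srsf12, with at most 2 reads a library, could not be compared at this depth. Pooled over genes with at least 20 reads in a pair of replicates, the spread between replicates exceeded counting error (chi-square per degree of freedom 17.6 and 27.9).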
